A study of Mus musculus with 4 samples.

Results

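The NF-kappaB genes described here are 10 named genes: the transcription factor genes Bcl3, Nfkb1, Nfkb2 and Relb, the inhibitor genes Nfkbia and Tnfaip3, the cytokine genes Il1b and Tnf, the antagonist gene Il1rn and the adhesion gene Icam1. They were selected on earlier results from these same arrays, with their differences between the groups in view. Their differences are therefore given as a description, without a test. Of the 10 genes, 9 were measured, by 15 probe sets, among 10923 genes in all. Nfkb1 had no probe set that the annotation table used here ties to it alone, and it was not analysed here.

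The mice were male, of strain C57BL6/J and 6 to 13 weeks of age, and RNA from their regenerating livers was measured on 4 single-colour Affymetrix arrays. Both groups were injected 1 time with siRNA packed in a lipid carrier, lost 40% of the liver 3 days later, and were sampled 48 hours after that partial hepatectomy. The siControl group (2 arrays) had a control siRNA, and the siOrm group (2 arrays) had an siRNA against Orm1, which encodes the acute phase protein orosomucoid. The series asked which genes depend on Orm1 in the regenerating liver, and no unoperated or uninjected liver was among the arrays used here. Whether each array represents a single mouse or several pooled mice is not in the labels, and the errors and p-values given here therefore cover the spread among these arrays alone, which could be technical.

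NF-kappaB is a family of dimeric transcription factors that inhibitor proteins hold in the cytoplasm until a signal, such as tumour necrosis factor, interleukin 1 or a bacterial product, has them degraded. The freed dimers enter the nucleus and switch on inflammatory genes, and among their targets are the genes of their own inhibitors, which end the response. In the liver, Kupffer cells release such cytokines soon after partial hepatectomy, and NF-kappaB is known for its part in the priming of hepatocytes and in their protection from cell death.

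All values are log2 signals centred per probe set on the median over the arrays, with base 2 assumed. A value of 0 is thus the middle of the 4 arrays, and for a gene with 1 probe set the 2 middle arrays lie at equal distances on either side of 0. Differences are siOrm minus siControl. Each SE is limma's moderated error, which draws on the spread of all genes as well as that of the gene itself. It can therefore be larger or smaller than the gene's own SD values would give. Because of the centring, no statement can be made about which gene had the higher signal or about whether a gene was near background, and the defining hepatocyte markers could not be checked for their level. The targeted gene itself differed little. Orm1 stood at 0.02 and 0.19 in siControl and at -0.24 and -0.02 in siOrm, a difference of -0.23 (SE 0.15), or -0.12 without siOrm replicate 1. Its groups did not overlap, nor did those of its paralogs Orm2 and Orm3, which differed by -1.08 (SE 0.34) and -0.91 (SE 0.34). For Orm1 the nearest arrays of the groups stood at only 0.02 and -0.02. All 3 thus lay wholly lower in siOrm, as 15.3% of all genes did, but none passed the test over all genes (limma, adjusted p = 0.994). The siControl arrays differed from each other more than the siOrm arrays did, with a standard deviation over genes of 0.384 against 0.249, and siControl replicate 2 stood apart in several marker lists given further down.

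The promoter sequences of the genes with the largest differences and of the genes with a kappaB match are shown first, because NF-kappaB dimers act through kappaB elements in such regions. Each is the 250 bases before an annotated start in the RefSeq table of GRCm38.p6, written 5′ to 3′ on the gene's strand, with matches to the kappaB decamer consensus on either strand in capitals. The windows are Bcl3 at chr7:19822756-19823005 (minus strand), Icam1 at chr9:21015690-21015939 (plus strand), the most upstream of 3 Nfkb2 windows at chr19:46304487-46304736 (plus strand), Nfkbia at chr12:55492648-55492897 (minus strand) and the more upstream of the Tnfaip3 windows at chr10:19015411-19015660 (minus strand).
Bcl3: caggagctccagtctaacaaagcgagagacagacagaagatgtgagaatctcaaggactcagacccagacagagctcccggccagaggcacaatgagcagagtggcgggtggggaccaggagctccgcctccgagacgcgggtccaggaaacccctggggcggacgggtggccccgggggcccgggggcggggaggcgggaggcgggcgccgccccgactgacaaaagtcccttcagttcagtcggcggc
Icam1: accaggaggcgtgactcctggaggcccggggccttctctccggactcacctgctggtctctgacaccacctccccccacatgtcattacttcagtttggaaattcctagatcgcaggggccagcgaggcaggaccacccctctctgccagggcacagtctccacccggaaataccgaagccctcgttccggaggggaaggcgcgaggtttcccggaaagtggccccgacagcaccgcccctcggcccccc
Nfkb2: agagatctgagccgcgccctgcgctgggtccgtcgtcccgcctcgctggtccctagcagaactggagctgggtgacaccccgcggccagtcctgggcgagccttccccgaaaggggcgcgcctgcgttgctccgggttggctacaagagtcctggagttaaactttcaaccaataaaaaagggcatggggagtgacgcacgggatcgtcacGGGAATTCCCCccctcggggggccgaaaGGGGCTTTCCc
Nfkbia: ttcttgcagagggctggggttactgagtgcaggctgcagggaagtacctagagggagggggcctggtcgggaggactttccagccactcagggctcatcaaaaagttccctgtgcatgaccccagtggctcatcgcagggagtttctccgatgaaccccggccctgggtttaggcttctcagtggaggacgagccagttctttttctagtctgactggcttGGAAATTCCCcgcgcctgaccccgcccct
Tnfaip3: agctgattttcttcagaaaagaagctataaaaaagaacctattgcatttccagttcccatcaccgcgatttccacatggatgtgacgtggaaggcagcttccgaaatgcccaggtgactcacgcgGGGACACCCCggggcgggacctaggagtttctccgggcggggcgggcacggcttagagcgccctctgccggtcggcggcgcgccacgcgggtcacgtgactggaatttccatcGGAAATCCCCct

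The table held 13 windows for 8 of the 10 genes, and Relb and Nfkb1 were not matched. A kappaB match was found in 5 of the 13 windows, which belong to 3 genes, Nfkb2, Nfkbia and Tnfaip3. Over all 32851 windows of the table the share with a match was 7.25%, and over all 27025 genes 8.23% had one in any window. In the Nfkb2 window shown, overlapping matches begin 39 and 38 bases before the start and another begins 11 bases before it. The match at 39 bases is the palindrome GGGAATTCCC, which fits the consensus on both strands. The Nfkbia match begins 29 bases before the start, and those of Tnfaip3 125 and 12 bases before it. The windows of Bcl3 and Icam1, the genes with the largest differences, held no match to this consensus, and neither did those of Il1b, Tnf and Il1rn. The Icam1 window does hold ggaaattcct, which differs from the Nfkbia match GGAAATTCCC only in its last base and was not counted. A match is a string of letters and not a measured binding site, and elements outside these windows or of other spelling are not covered. The genes with a match to this consensus were not those with the largest differences. Nfkb2, Nfkbia and Tnfaip3 differed by -0.18, -0.23 and 0.08, against -1.07 for Bcl3 and -0.87 for Icam1. A looser pattern, with the middle bases left free, was found in 45.8% of all windows. In the windows shown it was found 3 times for Bcl3 and 1 time for Icam1. For Nfkb2, Nfkbia and Tnfaip3 it was found 7, 2 and 4 times. Whether NF-kappaB acts on any of these genes through such elements was not tested.

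Bcl3 lay furthest apart between the groups. It encodes a nuclear member of the IkB family that binds p50 or p52 dimers and can turn them into activators or repressors, and it is itself induced by inflammatory signals. Its signal was 0.63 and 0.44 in the siControl arrays and -0.63 and -0.44 in the siOrm arrays. Both siOrm arrays were far below both siControl arrays, with gaps of 0.19 and 0.20 inside the groups. The mean was 0.53 ± 0.14 (SD, n = 2) in siControl and -0.54 ± 0.14 (SD, n = 2) in siOrm, a difference of -1.07 (SE 0.15), or a siControl signal 2.10 times that of siOrm. Counted from the lowest difference, Bcl3 had rank 54 of the 10923 genes, and Tnf, the highest of the 9, had rank 7975. The genes were chosen with these differences in view, so nothing is read from the ranks. Leaving out single arrays moved the Bcl3 difference only between -1.17 and -0.97.

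The other measured factor genes lay close to 0. Nfkb2 encodes the p100 precursor of p52, the main product of the non-canonical arm. It stood at 0.06 and 0.14 in siControl and at -0.07 and -0.09 in siOrm, a difference of -0.18 (SE 0.13). The order was clean but the step small, and it came from only 1 of its probe sets. Probe set 1425902_a_at read 0.06 and 0.34 against -0.06 and -0.25, whereas 1429128_x_at, whose name marks probes that can bind other transcripts, read 0.06 and -0.06 against -0.08 and 0.08. The first differed by -0.36 and the other by 0.00. Relb, the partner of p52 in that arm, stood at -0.06 and 0.33 in siControl and at -0.31 and 0.06 in siOrm. Its groups overlapped, and its difference of -0.26 (SE 0.20) was smaller than either gap inside the groups, 0.39 in siControl and 0.38 in siOrm. Without siControl replicate 2 the Relb difference was -0.06, and without siOrm replicate 1 it was -0.07.

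**Figure D1:**
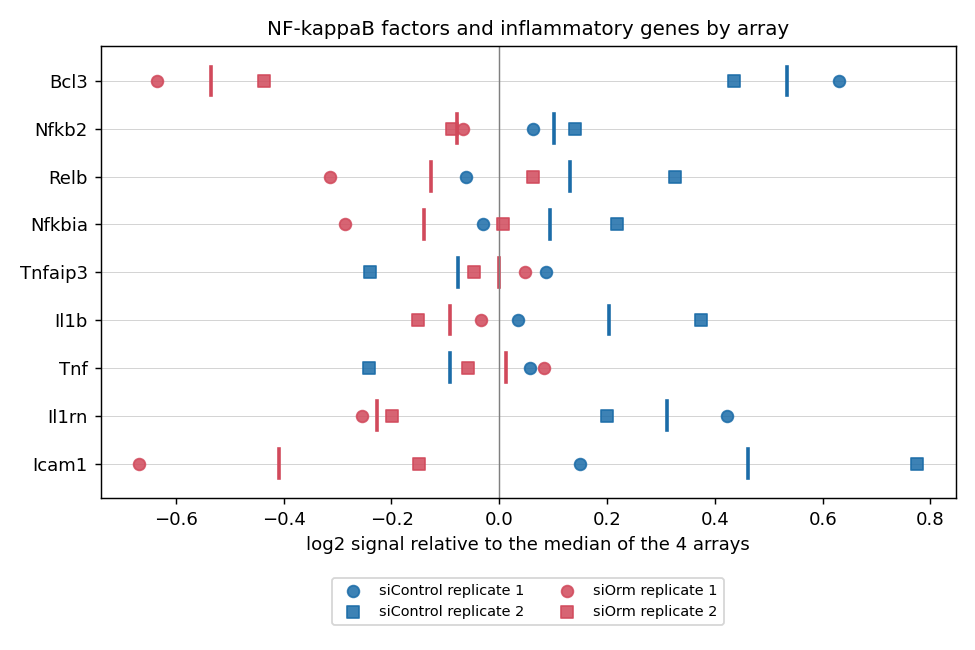
The 9 measured genes are plotted by array, as log2 signal relative to the median of the 4 arrays (horizontal axis), with blue for siControl, red for siOrm, circles for replicate 1, squares for replicate 2 and vertical bars for the group means. Bcl3, Il1rn and Icam1 show the red and blue points apart, while for Tnf and Tnfaip3 siControl replicate 2 is the lowest point.

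The inhibitor genes did not follow Bcl3. Nfkbia encodes IkB-alpha, the inhibitor that NF-kappaB itself induces within minutes to hours, and it is often read as a gauge of recent pathway activity. Its mean over 4 probe sets was -0.03 and 0.22 in the siControl arrays and -0.29 and 0.01 in the siOrm arrays. The groups overlapped, since siControl replicate 1 lay below siOrm replicate 2, and the difference was -0.23 (SE 0.17). Without siControl replicate 2 it came to -0.11, and without siOrm replicate 1 to -0.09. Of the probe sets, 1448306_at, 1420088_at and 1449731_s_at gave -0.31, -0.28 and -0.31, with siOrm replicate 1 lowest in each, at -0.37, -0.35 and -0.47. The remaining one, 1420089_at, gave -0.03 and had siOrm replicate 1 at 0.04. Tnfaip3 encodes A20, a ubiquitin-editing enzyme that stops signalling upstream of the IKK kinases. It stood at 0.09 and -0.24 in siControl and at 0.05 and -0.05 in siOrm. These values overlapped, and the difference of 0.08 (SE 0.16) turned to -0.09 without siControl replicate 2.

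The cytokine genes were also near even. Il1b, which encodes interleukin 1 beta, a product mainly of macrophages and neutrophils, stood at 0.03 and 0.37 in siControl and at -0.03 and -0.15 in siOrm. The groups did not overlap, with a step of 0.07 between the nearest arrays. The difference of -0.30 (SE 0.16) was smaller than the gap of 0.34 between the siControl arrays, and it was -0.13 without siControl replicate 2. Tnf, which encodes tumour necrosis factor, stood at 0.06 and -0.24 in siControl and at 0.08 and -0.06 in siOrm. Its groups overlapped, its difference was 0.10 (SE 0.16), and without siControl replicate 2 that turned to -0.05. Il1b was thus highest, and Tnf lowest, in the same array, siControl replicate 2.

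Il1rn encodes the interleukin 1 receptor antagonist, a secreted competitor of interleukin 1 that hepatocytes also make in the acute phase. Averaged over 3 probe sets it stood at 0.42 and 0.20 in siControl and at -0.26 and -0.20 in siOrm, with no overlap, and the difference was -0.54 (SE 0.14). The probe sets did not give the same picture. Probe set 1451798_at read 0.61 and 0.58 against -0.60 and -0.58, a difference of -1.18 with gaps inside the groups of only 0.03. Probe set 1423017_a_at also separated the groups, but by -0.15, at 0.12 and 0.04 against -0.10 and -0.04. Probe set 1425663_at read 0.54 and -0.02 against -0.07 and 0.02, so its difference of -0.28 rested on siControl replicate 1. With the median in place of the mean of the probe sets, Il1rn differed by -0.36. Il1rn has alternative first exons, for a secreted form and intracellular forms, and which of them each probe set reads was not tested.

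**Figure D2:**
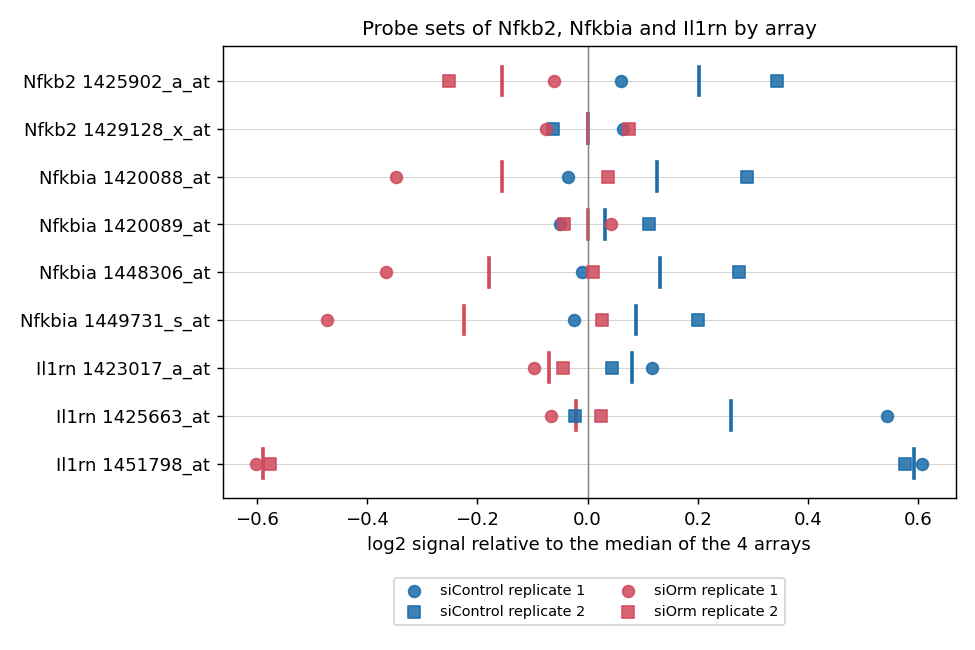
The single probe sets of Nfkb2, Nfkbia and Il1rn are plotted by array on the same axis and with the same symbols as the genes, with vertical bars for group means. Il1rn 1451798_at shows tight pairs near 0.6 and -0.6, at 0.61 and 0.58 against -0.60 and -0.58, while the other 2 Il1rn probe sets lie near 0 apart from siControl replicate 1 of 1425663_at at 0.54.

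Icam1 encodes an adhesion molecule that binds leukocyte integrins and is a classical NF-kappaB target of endothelial cells and hepatocytes. It stood at 0.15 and 0.77 in siControl and at -0.67 and -0.15 in siOrm. The groups did not overlap, but each was spread widely, with gaps of 0.62 and 0.52. The difference was -0.87 (SE 0.27), or a siControl signal 1.83 times that of siOrm. It came to -0.56 if siControl replicate 2 was left out, to -0.61 without siOrm replicate 1, and it reached -1.18 without siControl replicate 1.

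Across the 9 measured genes, the siOrm arrays were both lower than either siControl array in 5 (Bcl3, Nfkb2, Il1b, Il1rn and Icam1) and both higher in 0, where 15.3% and 17% of all genes did so. The mean of siOrm was the lower in 7 of the 9, against 47.8% of all genes. Since the genes were chosen with this comparison in view, nothing is read from these counts. The difference was larger than both gaps inside the groups for 4 of the 9 (Bcl3, Nfkb2, Il1rn and Icam1), against 20.3% of all genes. For the same reason nothing is read from that count. The gap between the siControl arrays exceeded that between the siOrm arrays in 7 of the 9, against 62.6% of all genes. The highest value was in siControl replicate 2 for 5 of the 9, against 28.1% of all genes, and the lowest in siOrm replicate 1 for 5 of the 9, against 28.4%. By array, the median over the 9 was 0.06 and 0.22 (siControl) against -0.26 and -0.09 (siOrm), and the median difference was -0.26, beside 0.01 over all genes. That median was -0.43 without siControl replicate 1, but -0.13 without siControl replicate 2.

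The 9 genes therefore showed more than 1 pattern over the arrays. Bcl3, Il1rn and Tnfaip3 were highest in siControl replicate 1, at 0.63, 0.42 and 0.09. Icam1, Relb, Nfkbia, Nfkb2 and Il1b were highest in siControl replicate 2. Tnf and Tnfaip3 were lowest there, at -0.24 each. The root mean square distance of a gene from the mean profile of the 9 ran from 0.10 for Nfkb2 to 0.37 for Bcl3. The genes outside the 9 whose values over the 4 arrays came closest to that mean profile were Ly75, Ptpn23, Clptm1l, Kit and Rbmxl1, with distances from 0.018 to 0.032. Ly75, an endocytic receptor of dendritic cells, stood at 0.13 and 0.21 in siControl and at -0.21 and -0.13 in siOrm. With 4 arrays and 10923 genes, such likeness is a description only.

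Other genes of the pathway were taken from 6 lists by role, with the 10 genes left out. Of 137 genes listed, 103 were measured. These lists too were chosen with earlier results of these data known, so nothing is read from their counts here and further down. The genes named from each list were mostly picked by their p in this same comparison. None of the 103 passed the test over all genes (limma, smallest adjusted p = 0.994), and 0% of all genes passed in either direction. At an unadjusted p under 0.05 there were 6 lower and 2 higher, which is 5.83% and 1.94% of the 103, beside 2.58% and 2.18% of all genes (282 lower and 238 higher). The groups did not overlap and siOrm was lower for 27 of the 103 (26.2%, beside 15.3% of all genes), and siOrm was higher without overlap for 14 (13.6%, beside 17%). Without siControl replicate 2 the former count was 46 (44.7%, beside 36.8% of all genes), a setting in which 1 array stands for its group. The median difference over the 103 was -0.08. Without siControl replicate 1, 229 genes passed (limma), 2.1% of all genes, with 183 lower and 46 higher in siOrm. Among them were 11 of the 103 pathway genes (10.7%), all 11 lower. In that fit siControl replicate 2 is the only control array and is assumed to vary like the siOrm group. Those 11 genes were Ccl2, Cd14, Cd44, Cxcl10, Cxcl2, Ier3, Ikbke, Lcn2, Saa3, Tlr2 and Tnfaip2.

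Among the other Rel and IkB genes, 4 of 7 were measured, and their median difference was -0.29, or -0.19 without siControl replicate 2. Rela encodes p65, the main activating subunit. It stood at 0.07 and 0.20 in siControl and at -0.26 and -0.07 in siOrm (difference -0.30, SE 0.14). Nfkbiz, a nuclear IkB relative like Bcl3, stood at 0.06 and 0.65 against -0.49 and -0.06 (difference -0.63, SE 0.25), and its difference was -0.33 without siControl replicate 2, or -0.41 if siOrm replicate 1 was left out. Nfkbib, a cytoplasmic inhibitor, stood at 0.05 and 0.35 against -0.05 and -0.11 (difference -0.28, SE 0.15), and its difference was -0.13 without siControl replicate 2. The only probe set of Nfkbib has a name in _x_at or _s_at, so the gene dropped out when such probe sets were left out. In all 3 both siOrm arrays were the lower ones, as in 15.3% of all genes. Nfkbil1, which lies in the MHC region and is related to the IkB proteins in sequence, went the other way, at -0.28 and -0.24 against 0.31 and 0.24 (difference 0.53, SE 0.13).

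The ligand and receptor lists had medians near 0, at 0.06 over 10 ligands and -0.05 over 21 receptors, and the sign of either changed when single arrays were left out. Of the 10 ligands, 2 lay wholly below and 1 wholly above in siOrm, where 15.3% and 17% of all genes did so. Il1a, Lta, Tnfsf14 and Tnfsf11, those with the smallest p, differed by -0.25, -0.22, 0.24 and 0.38. Single arrays moved all 4: without siOrm replicate 1, Il1a, Tnfsf14 and Tnfsf11 stood at -0.10, 0.09 and -0.0064, and Lta stood at -0.08 without siControl replicate 1. Of the 21 receptors, 5 lay wholly below and 2 wholly above, beside the same 15.3% and 17% of all genes. Tnfrsf12a, the receptor of the cytokine TWEAK, which drives progenitor growth in injured liver, stood at 0.30 and 0.58 in siControl and at -1.24 and -0.30 in siOrm. Its difference of -1.21 (SE 0.32) was -0.74 without siOrm replicate 1. Tlr2, which senses bacterial lipoproteins, stood at 0.07 and 1.48 against -0.17 and -0.07, and its difference of -0.90 shrank to -0.19 without siControl replicate 2. Tnfrsf1a, the main receptor of tumour necrosis factor, and Cd40 differed by -0.22 and 0.21. Tnfrsf1a stood at -0.12 without siControl replicate 1, and Cd40 turned to -0.10 when the probe sets with names in _x_at or _s_at were dropped. Cd14, the coreceptor for endotoxin, singled out after its values were seen, reached 2.79 in siControl replicate 2, while its other 3 arrays ranged from -0.22 to 0.15.

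Adaptors and IKK kinases, 22 measured of 33, had a median of -0.07. Of the 22, 6 lay wholly below and 2 wholly above, beside 15.3% and 17% of all genes. Ikbke, an inducible IKK-related kinase, stood at 0.14 and 0.88 in siControl and at -0.14 and -0.19 in siOrm (difference -0.68, SE 0.25). Its difference was -0.31 without siControl replicate 2. Tirap, an adaptor of Toll-like receptors, differed by -0.38 (SE 0.14), Map3k8, a kinase that p105 holds until p105 is degraded, by -0.22, and Ikbkg, which encodes the IKK scaffold NEMO, by -0.22. Map3k8 stood at -0.10 without siControl replicate 2, and Ikbkg at -0.12 without siControl replicate 1 and likewise without siOrm replicate 1. Negative regulators, 13 of 16, had a median of 0.05. Of the 13, 0 lay wholly below and 2 wholly above, beside the same 15.3% and 17%. Itch, Pdlim2, Zc3h12a and Otud7b differed by 0.21, 0.19, -0.17 and -0.51, and all 4 moved with single arrays. Without siControl replicate 2, Otud7b stood at -0.05 and Pdlim2 at 0.03, and without siOrm replicate 1, Zc3h12a stood at -0.07 and Itch at 0.13.

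The other target genes, 33 of 44 measured, held the widest differences, from -1.68 to 0.59, around a median of -0.08, which was 0.02 without siControl replicate 2. The lowest difference was that of Cxcl10 and rested on siControl replicate 2. Cxcl10 stood at 0.05 and 3.15 in siControl and at -0.10 and -0.05 in siOrm. Of the 33 target genes, 11 lay wholly below and 6 wholly above, beside 15.3% and 17% of all genes. Lcn2, an iron-binding acute phase protein, stood at 0.26 and 1.26 in siControl and at -0.50 and -0.26 in siOrm (difference -1.14, SE 0.33), and its difference was -0.64 without siControl replicate 2. Gadd45b, a stress gene that NF-kappaB induces, was more even inside the groups, at 0.27 and 0.21 against -0.15 and -0.19 (difference -0.41, SE 0.13). The chemokine gene Cxcl1 differed by -1.58 (SE 0.48), and by -0.96 without siOrm replicate 1. F3, which encodes tissue factor, went the other way, at -0.17 and -0.18 against 0.17 and 0.66 (difference 0.59, SE 0.19), and its difference was 0.35 without siOrm replicate 2.

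**Figure D3:**
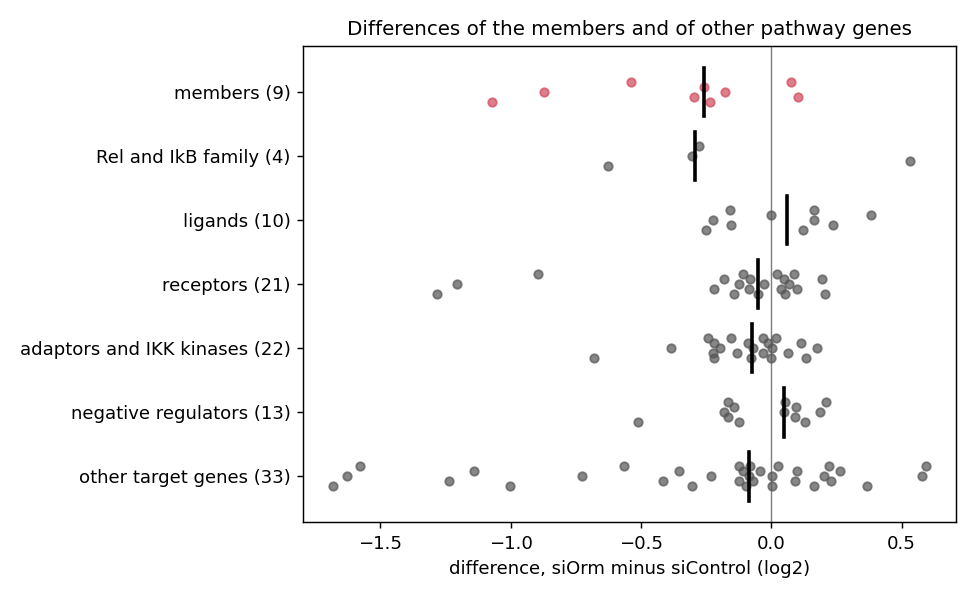
Differences between siOrm and siControl in log2 units (horizontal axis) are plotted for the 9 measured members (red) and for the measured genes of each pathway list (grey), 1 point per gene, with the number of genes in brackets and a black bar at the median. The medians of the lists lie between -0.29 and 0.06, and the other target genes span the widest range, from -1.68 to 0.59. The lowest point, Cxcl10, rests on siControl replicate 2.

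Marker genes of other cell types also differed between the arrays, and those of macrophages, stellate cells and endothelial cells differed most between the siControl arrays. Of the macrophage list 11 of 12 markers were measured, and their median was -0.22 in siControl replicate 1 and 0.57 in siControl replicate 2, against -0.01 and 0.03 in siOrm. Single macrophage markers ran from -0.54 to 0.25 in siControl replicate 1, from -0.03 to 1.97 in siControl replicate 2, from -0.25 to 0.16 in siOrm replicate 1 and from -0.41 to 0.30 in siOrm replicate 2. Marco and Lyz2 had the widest spread. Marco, a scavenger receptor of Kupffer cells, stood at 0.25 and 1.97 against -0.25 and -0.38. Lyz2 stood at -0.52 and 1.15 against -0.25 and 0.25, with overlap. Of the 11 markers, only Marco lay wholly below in siOrm and only Adgre1 wholly above, where 15.3% and 17% of all genes did so. Stellate cell markers (7 of 8) and sinusoidal endothelial markers (9 of 10) were likewise highest in siControl replicate 2, with medians of 0.44 and 0.25 there and -0.28 and -0.21 in siControl replicate 1. Between these arrays Icam1, Relb, Nfkbia, Il1b and Nfkb2 were higher in siControl replicate 2, by 0.62, 0.39, 0.25, 0.34 and 0.08. Bcl3, Il1rn, Tnfaip3 and Tnf were higher in siControl replicate 1, by 0.19, 0.22, 0.33 and 0.30. The part of these cells in the results was not tested, and in bulk liver fewer cells of a type and less RNA per cell cannot be told apart.

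Neutrophil markers (10 of 12) had medians of 0.10 and -0.01 in siControl and -0.05 and -0.01 in siOrm, yet S100a8 and S100a9 stood at 2.75 and 1.95 in siControl replicate 2. Their other arrays lay between -0.60 and 0.16. B cell markers (4 of 5) and T and NK cell markers (8 of 11) were lowest in siControl replicate 2, at medians of -0.25 and -0.14. Cholangiocyte markers (5 of 6) had medians from -0.08 to 0.09, and hepatocyte markers (9 of 10) from -0.04 to 0.03. The hepatocyte medians were thus the most even over the 4 arrays. Single hepatocyte markers spread wider, with Tat at -0.78 in siOrm replicate 1 and Hnf4a at -0.31 in siControl replicate 2. Of the 9 measured, 1 lay wholly below and 4 wholly above in siOrm, beside 15.3% and 17% of all genes.

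**Figure D4:**
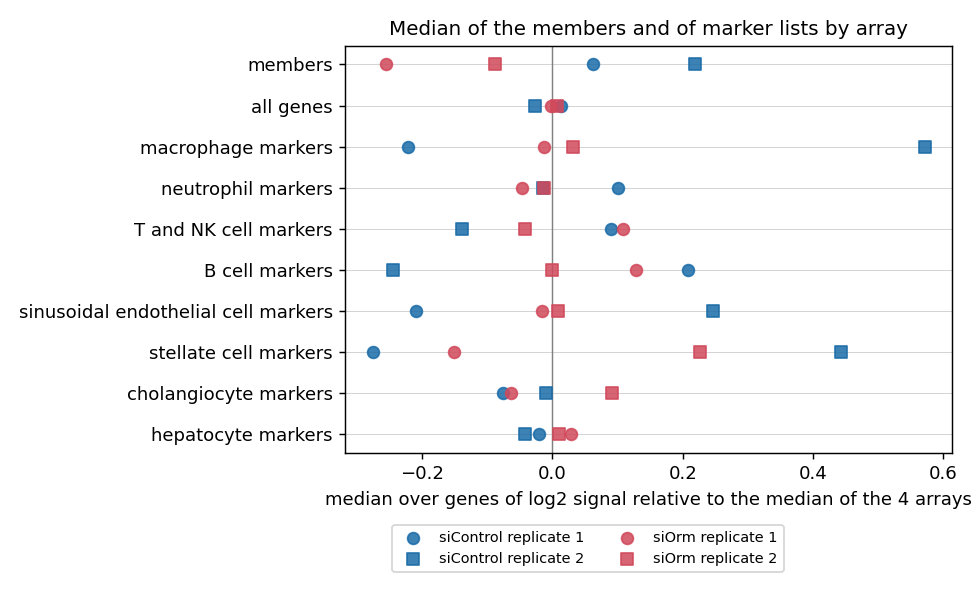
The median over the 9 members, over all genes and over each marker list is plotted by array, in log2 signal relative to the median of the 4 arrays, with blue for siControl, red for siOrm, circles for replicate 1 and squares for replicate 2. Macrophage, stellate and endothelial markers are highest in siControl replicate 2 (0.57, 0.44 and 0.25), and for the members both siOrm medians lie lowest (-0.26 and -0.09).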

How the data were processed

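The deposited values are log2 signals of 18852 probe sets, 1 column per array. Each probe set had been centred on its median over the arrays (largest row median 4.8e-07). The sources used here do not give the base of the logarithm, the software, the normalization or any filter, and base 2 was assumed. The protocols in the labels describe a labelling kit from a different manufacturer and RNA of cultured cells, so what was done in the laboratory is not certain. The titles siOrm1 and siOrm2 could mean 2 different target genes, but the source names give 1 group.

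Gene symbols came from the platform annotation. The 17209 probe sets with 1 symbol, control probe sets left out, gave 10923 genes, each the mean of its probe sets. Groups were compared, two-sided, with limma's moderated test (version 3.58.1, R 4.3.3; constant variance prior) and Benjamini-Hochberg adjustment over all genes at 0.05. The 4 arrays limit the precision. The members and lists were chosen with earlier results of these data known. Named genes were the members, Orm1 and its paralogs, up to 4 genes per pathway list with the smallest p, up to 2 per marker list with the widest spread and the 5 genes closest to the members' mean profile. Each array was left out in turn, and other normalization, probe set rules, priors and a replicate block were tried. The fit was tested on simulated data.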

Additional observations from a re-analysis of the deposited data

How the results depend on the processing

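With 2 arrays in each group, leaving out 1 array changes most medians, and where siControl loses an array the other stands alone. Over these settings, genes that passed (limma) ran from 0 to 46 higher and from 0 to 183 lower. The median difference of the members ran from -0.43 to -0.13. The number of members wholly below ran from 5 to 7. The share of all genes wholly below also rose, to between 23.5% and 36.8%, from 15.3% with all 4 arrays. The list medians ran from -0.40 to -0.19 for Rel and IkB genes, -0.091 to 0.0065 for receptors, -0.067 to 0.18 for ligands, -0.083 to -0.055 for adaptors and IKK kinases, -0.079 to 0.16 for negative regulators and -0.092 to 0.018 for other target genes. Marker medians ran from -0.57 to 0.33 (macrophage), -0.17 to -0.0053 (neutrophil), -0.23 to 0.31 (B cell), -0.24 to 0.19 (endothelial), -0.45 to 0.31 (stellate), -0.064 to 0.17 (cholangiocyte) and 0.049 to 0.10 (hepatocyte).

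With a variance prior that follows the row mean, which in a centred table is no signal level, 3 genes were higher and 8 lower. With the replicate number as a block, 0 genes were higher and 0 lower (limma), and the deviations of same-numbered arrays correlated at 0.13 over genes. The arrays share only a number, so no pairing was assumed. Robust estimation of the prior also gave 0. After quantile normalization the medians of ligands and of adaptors were 0.088 and -0.057. Bcl3 and Il1rn then differed more, by -1.26 and -0.66, while Icam1, Relb and Nfkbia differed less, by -0.69, -0.145 and -0.16. The median difference of the members was -0.18 in that setting. The macrophage marker median was -0.0083 and the stellate marker median 0.037. Without probe sets that can share sequence, adaptors stood at -0.083, hepatocyte markers at 0.090 (also 0.090 with the median of probe sets) and Nfkb2 at -0.36. No member changed the direction of its difference under quantile normalization, array centring or the probe set rules. The cause of these shifts was not tested. Signal over background could not be seen in centred values.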
